A study of Mus musculus with 32 samples.

Results

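The regions described here were 5782 ATAC-seq peaks that were called in A-485-treated mouse embryos at the early 2-cell stage and in neither control list. They were chosen by position alone: each peak of the A-485 early 2-cell list was kept if it shared no base with a peak of the early 2-cell DMSO list or of the late 1-cell DMSO list. They made up 42.2% (95% Wilson interval 41.3 to 43.0) of the 13712 A-485 early 2-cell peaks, and are called A-485-only peaks below. Because the lists themselves selected them, their presence in one list and absence from the others is no finding. ATAC-seq maps open chromatin by the places where a transposase can insert, and each list had been called by the authors over 2 replicates. A peak that is absent from a list was therefore not called there, and chromatin at that place need not have been closed.

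The embryos came from in vitro fertilization of B6D2F1/J oocytes with B6D2F1/J sperm, from mice aged 6 to 8 weeks, and all groups shared this cross and were wild type as far as the labels say. A-485 inhibits the acetyltransferase activity of CBP and p300. Treated embryos were cultured in 10 μM A-485 from 4 to 20 h after insemination and then washed, and control embryos received the DMSO vehicle. This treatment ran from the zygote to the early 2-cell stage, so the late 2-cell embryos were taken after the inhibitor had been washed off. The study reports that acetylation of H3K27 was back at the control level after washing. Stage and washout therefore cannot be told apart where early and late effects are compared. Late 1-cell embryos come before the end of the treatment. Stage and length of exposure thus cannot be told apart between the A-485 peak lists. ATAC-seq was made at the late 1-cell and at the early 2-cell stage, and gave 4 lists with 58713 peaks in all. RNA-seq covered A-485 and DMSO embryos at the early and the late 2-cell stage, with 2 libraries in each group. A separate late 2-cell experiment compared 50 nM TSA, an inhibitor of histone deacetylases given over other hours than A-485, with its own DMSO embryos.

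Mammalian embryos begin life with RNA laid down in the oocyte, and start transcribing their own genome in a minor wave in the zygote and early 2-cell embryo and a major wave in the late 2-cell embryo. CBP and p300 acetylate histones, H3K27 among other sites, at active enhancers and promoters, where they act as coactivators. Many mammalian promoters lie in CpG islands, stretches rich in G, C and the CpG dinucleotide that are often open before the gene is transcribed.

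The 2-cell RNA libraries held between 13206163 and 26531532 expected counts. No pair of replicates agreed within sampling noise, with chi-square values from 8.99 to 18 times their degrees of freedom. All 7 oocyte-derived markers examined had a mean of at least 1 FPKM (fragments per kilobase of effective transcript length, scaled to the library's size) in each 2-cell group. In these bulk libraries, fewer cells with a transcript and less of it per cell cannot be told apart.

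The windows of 300 bases around the summits of the strongest A-485-only peaks are shown first, since they show the base composition and motifs that the comparisons below count. Capitals mark the GC box GGGCGG and the CCAAT box CCAAT on either strand, the core letters known for Sp and Klf factors and for NF-Y. The OTX/OBOX site GGATTA, known for Otx and Obox factors, was searched too and stood in none of the 6 windows. The sequences were read from GRCm38 on the plus strand. The 3 strongest promoter peaks lay at chrX:73097048-73097347 (Xlr3a and Gm20455), chr5:129846721-129847020 (Sumf2) and chr5:17574392-17574691 (Sema3c). The 3 strongest distal peaks lay at chr7:62225220-62225519, chr10:110733381-110733680 and chr16:58350806-58351105, nearest to Gm9801, E2f7 and Gm37825.
Xlr3a promoter peak: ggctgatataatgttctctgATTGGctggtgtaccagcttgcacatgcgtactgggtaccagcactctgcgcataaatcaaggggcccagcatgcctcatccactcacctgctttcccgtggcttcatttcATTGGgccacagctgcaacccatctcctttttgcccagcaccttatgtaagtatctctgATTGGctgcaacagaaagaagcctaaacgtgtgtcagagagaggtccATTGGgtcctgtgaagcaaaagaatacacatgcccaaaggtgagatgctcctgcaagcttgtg
Sumf2 promoter peak: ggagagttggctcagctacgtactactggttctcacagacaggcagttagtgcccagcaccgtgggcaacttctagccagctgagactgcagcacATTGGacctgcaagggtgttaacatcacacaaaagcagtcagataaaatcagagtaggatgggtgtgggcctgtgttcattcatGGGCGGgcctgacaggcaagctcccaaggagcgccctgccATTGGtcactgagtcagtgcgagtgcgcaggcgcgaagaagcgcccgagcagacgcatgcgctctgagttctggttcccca
Sema3c promoter peak: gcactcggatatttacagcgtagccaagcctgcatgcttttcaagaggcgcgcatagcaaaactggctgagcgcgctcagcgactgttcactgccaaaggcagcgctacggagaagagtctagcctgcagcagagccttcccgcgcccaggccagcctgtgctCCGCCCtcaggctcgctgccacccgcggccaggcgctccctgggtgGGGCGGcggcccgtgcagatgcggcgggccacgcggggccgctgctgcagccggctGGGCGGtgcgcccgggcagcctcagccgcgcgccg
distal peak near Gm9801: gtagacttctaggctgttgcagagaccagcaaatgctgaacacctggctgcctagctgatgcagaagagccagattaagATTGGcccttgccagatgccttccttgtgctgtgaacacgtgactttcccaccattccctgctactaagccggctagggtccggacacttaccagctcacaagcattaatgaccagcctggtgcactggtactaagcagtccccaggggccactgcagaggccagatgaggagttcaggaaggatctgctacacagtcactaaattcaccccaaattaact
distal peak near E2f7: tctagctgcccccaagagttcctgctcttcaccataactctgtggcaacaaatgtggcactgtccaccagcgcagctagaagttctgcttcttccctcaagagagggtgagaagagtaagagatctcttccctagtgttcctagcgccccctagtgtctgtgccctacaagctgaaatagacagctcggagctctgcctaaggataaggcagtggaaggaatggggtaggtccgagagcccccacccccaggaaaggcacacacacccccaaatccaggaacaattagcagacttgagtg
distal peak near Gm37825: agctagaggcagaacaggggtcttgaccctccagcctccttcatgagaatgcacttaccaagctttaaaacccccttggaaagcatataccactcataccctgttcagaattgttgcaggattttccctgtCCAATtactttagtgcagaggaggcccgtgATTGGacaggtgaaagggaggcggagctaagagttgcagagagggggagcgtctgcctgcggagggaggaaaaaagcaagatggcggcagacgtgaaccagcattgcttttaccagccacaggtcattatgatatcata

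The Xlr3a window held 4 CCAAT boxes and had a CpG observed/expected ratio of 0.211. Sema3c, a secreted semaphorin that guides migrating cells and axons, had a window with 3 GC boxes, 70.7% G and C and a CpG ratio of 0.855. The distal windows near Gm9801 and Gm37825 held 1 and 2 CCAAT boxes, and the window near E2f7 held none of the 3 motifs. Annotated repeats took 0.0% of bases near Gm9801 and 26.7% near Gm37825.

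A-485-only peaks lay at promoters somewhat more often than at distal sites when start sites of all gene types were counted. With start sites of protein-coding genes alone they did not, at 47.0% and 48.4%. The values that follow use all start sites. Of the 5782 peaks, 3050 lay within 1 kb of a transcript start site (52.7%, 51.5 to 54.0), 2362 were distal, over 2.5 kb away (40.9%, 39.6 to 42.1), and 370 lay between (6.40%). A-485 early 2-cell peaks that were also called in late 1-cell DMSO embryos alone were promoter peaks in 59.9% of cases (57.6 to 62.0). Those also called in early 2-cell DMSO embryos alone were promoter peaks more often, with 71.9% (69.9 to 73.8), and those called in both DMSO lists still more often, with 87.4% (86.4 to 88.4). The opposite held for the 21088 peaks called in early 2-cell DMSO embryos alone, and so in neither A-485 early 2-cell nor late 1-cell DMSO embryos, which were promoter peaks in 13.6% of cases and distal in 73.3%. A-485-only peaks thus stood between the shared peaks and the control peaks in their place along genes. None of these intervals overlap, but they cover counting error only, since each list is a single set.

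The distal A-485-only peaks were 60.5% intergenic and 32.3% intronic, and 7.20% lay in exons. Their median distance to a start site was 12730 bp, and 3.01% lay over 100 kb from any start site. At promoters, a start site lay inside the peak in 78.7% of A-485-only peaks (77.2 to 80.1), against 96.0% (95.3 to 96.6) of promoter peaks called in both DMSO lists. The peaks were spread over the genome. On chromosome X they made up 42.7% of A-485 early 2-cell peaks, close to their share in the whole list.

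**Figure D1:**
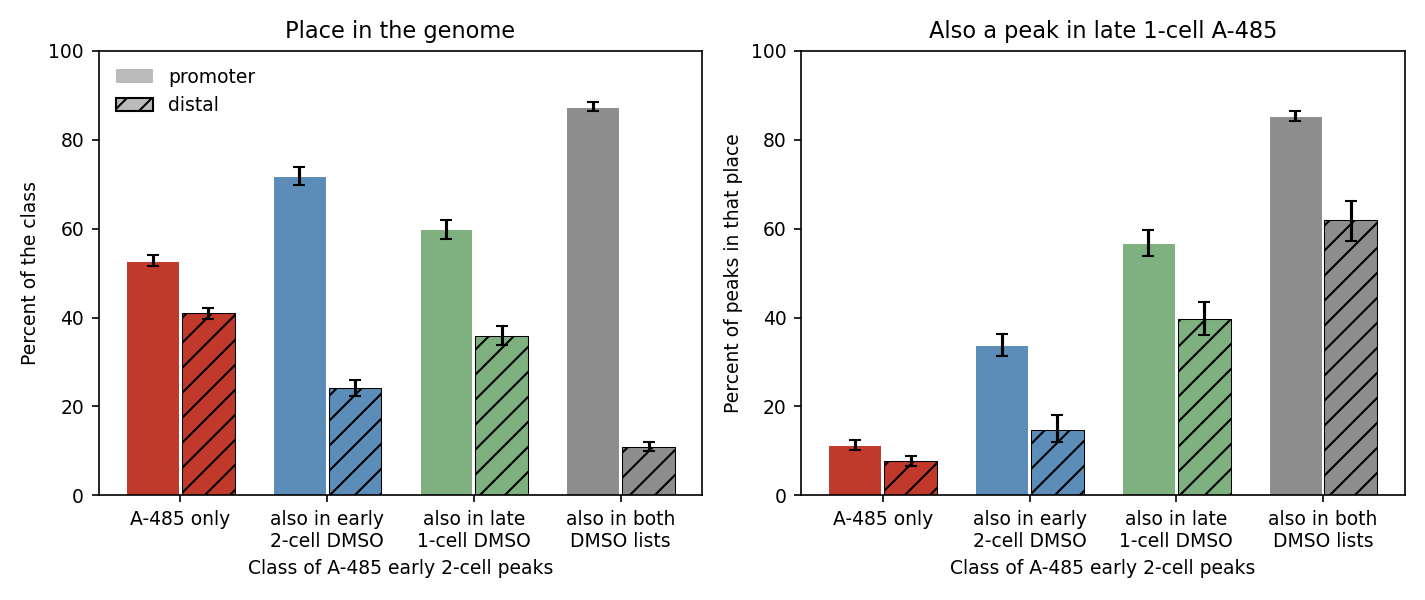
Bars give, for A-485-only peaks and the 3 other classes of A-485 early 2-cell peaks, the percent at promoters and at distal sites (left) and the percent also called in late 1-cell A-485 embryos (right), with 95% Wilson intervals. A-485-only peaks have 52.7% at promoters and 40.9% at distal sites. Their bars on the right, 11.3% and 7.62%, are the lowest, which the removal of late 1-cell DMSO peaks by the rule partly fixed.

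The A-485-only peaks were on the weak side of their list, as a description, since the rule took them from it. Their median fold enrichment over background, as the authors' peak caller gave it, was 6.89 (quartiles 5.92 and 8.02, maximum 17.4), with a median −log10 q of 15.9 and a median width of 513 bp. Peaks also called in early 2-cell DMSO embryos had a median of 7.33, those also called in late 1-cell DMSO embryos 7.88, and those in both 9.20. When all A-485 early 2-cell peaks were divided into 4 equal bands by fold enrichment, A-485-only peaks made up 61.4%, 53.3%, 36.8% and 17.2% from the weakest band to the strongest. The strongest band still held 590 of them. Distal A-485-only peaks had a slightly higher median than promoter ones, at 7.07 and 6.77, and were narrower, at 412 and 636 bp.

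Most A-485-only peaks lay far from any control peak. The median gap to the nearest peak of either DMSO list was 15464 bp, and 3532 peaks (61.1%) had a gap over 10 kb. Just inside the rule, 43 peaks lay within 100 bp of a DMSO peak and 427 (7.38%) within 1000 bp, and these 427 had a median fold enrichment of 6.03. Just outside it, 16 of the 7930 excluded peaks shared at most 100 bases with a DMSO peak, with a median of 4.83.

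**Figure D2:**
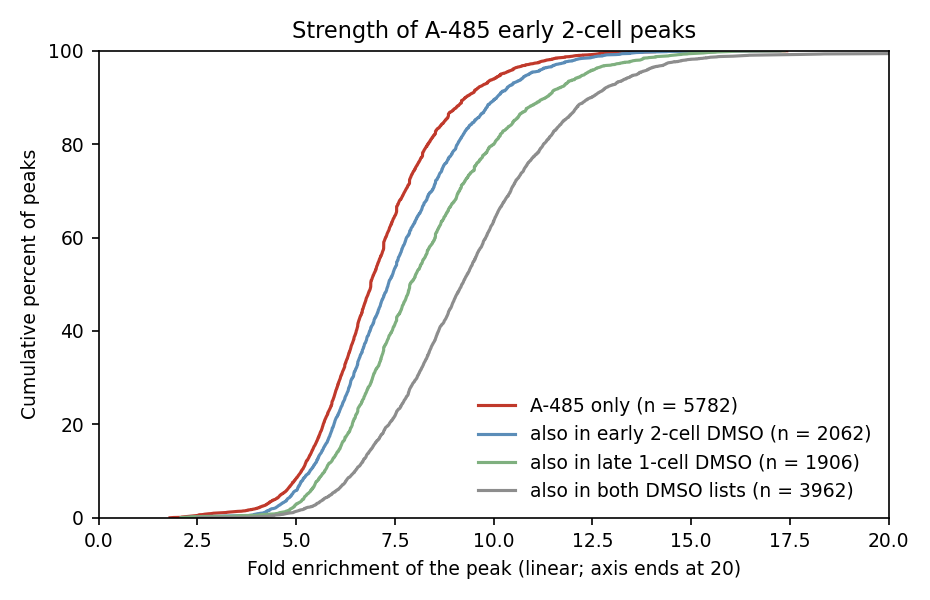
Lines give the cumulative percent of peaks (vertical axis) against fold enrichment on a linear scale (horizontal axis, ending at 20) for the 4 classes of A-485 early 2-cell peaks. The A-485-only line lies farthest to the left, with a median of 6.89, and the line of peaks called in both DMSO lists farthest to the right, with 9.20.

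Few A-485-only peaks were already called in A-485-treated embryos at the late 1-cell stage, a list that the rule did not use directly. The rule removed all peaks of the late 1-cell DMSO list, however. Only 30.0% of late 1-cell A-485 peaks had no counterpart there, so a low overlap was partly built in. The overlap was 549 of 5782 peaks (9.49%, 8.77 to 10.3). It was higher at promoters (11.3%, 10.2 to 12.5) than at distal sites (7.62%, 6.62 to 8.76), and increased with the strength of the peak, from 4.5% in the weakest of 4 equal bands of A-485-only peaks to 16.3% in the strongest. Of the A-485 early 2-cell peaks that also lacked a late 1-cell DMSO peak but were called in early 2-cell DMSO embryos, 28.4% (26.5 to 30.4) were in the late 1-cell A-485 list. For the control peaks found in early 2-cell DMSO embryos alone the share was 0.616% (0.519 to 0.731), below that of A-485-only peaks. That class leaves out A-485 early 2-cell peaks by definition, so the 2 shares are not alike.

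Seen from the late 1-cell stage, 2130 of 7094 A-485 peaks (30.0%) had no late 1-cell DMSO counterpart, and 543 of these (25.5%, 23.7 to 27.4) overlapped an A-485-only peak. The 549 A-485-only peaks called at both stages were promoter peaks in 62.8% of cases (58.7 to 66.8) and had a median fold enrichment of 7.57. The other 5233 were promoter peaks in 51.7% (50.3 to 53), with a median of 6.83. Among the strongest peaks, those at Xlr3a and Sumf2 and those near Gm9801 and E2f7 were called at both stages, and the one at Sema3c was not.

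Promoter A-485-only peaks were rich in CpG, but not richer than most other A-485 promoter peaks. They were about as rich as A-485 promoter peaks also called in late 1-cell DMSO embryos alone. The peaks called in early 2-cell DMSO embryos alone were poor in CpG. Of promoter A-485-only windows, 59.2% (57.5 to 60.9) met a CpG-island-like criterion, at least 55% G and C and a CpG observed/expected ratio of at least 0.65, against 28.1% of 32851 RefSeq promoter windows of the same length (GRCm38.p6). The share was 53% (51.9 to 54.0) over all 8028 promoter peaks of the early 2-cell DMSO list, 79.4% for promoter peaks called in both DMSO lists, and 10.7% for promoter peaks called in early 2-cell DMSO embryos alone. A-485 promoter peaks also called in late 1-cell DMSO embryos alone had 58.6% (55.8 to 61.5). Those also called in early 2-cell DMSO embryos alone had 75.2% (72.9 to 77.3). These 2 classes held the GC box in 65.6% and 69.6% of windows. The GC box stood in 62.6% of promoter A-485-only windows, 54.1% of all promoter windows of the early 2-cell DMSO list, 78.6% of windows of both lists, 17.5% of the DMSO-alone windows and 35.7% of RefSeq promoters. Distal A-485-only windows were poorer in CpG, with 5.76% island-like and a GC box in 20.2%, yet above the distal DMSO-alone windows at 0.149% and 6.42%.

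The OTX/OBOX site and repeats were frequent in the DMSO-alone peaks and rare in A-485-only peaks. The letters GGATTA on either strand stood in 77.1% (76.5 to 77.6) of the 21088 DMSO-alone windows but in 6.59% (5.98 to 7.26) of A-485-only windows, with 4.13% at promoters and 9.53% at distal sites. RefSeq promoters held them in 7.06%, and peaks of both DMSO lists in 6.28%. Windows with most of their bases in annotated repeats were 60.8% of DMSO-alone peaks and 4.20% of A-485-only peaks. The CCAAT box stood in 35.1% of distal A-485-only windows and 24.6% of distal DMSO-alone ones, and at promoters A-485-only windows held it less often (30.6%) than RefSeq promoters (37.4%). The Ets site CCGGAAG stood in 11.7% of promoter A-485-only windows, 15.6 to 18.8% of the other classes of A-485 promoter peaks and 8.86% of RefSeq promoters. The E-box CACGTG stood in 9.57%, 10.6 to 13.4% and 7.15% of them. A match to these letters describes the sequence and does not show that a factor was bound.

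**Figure D3:**
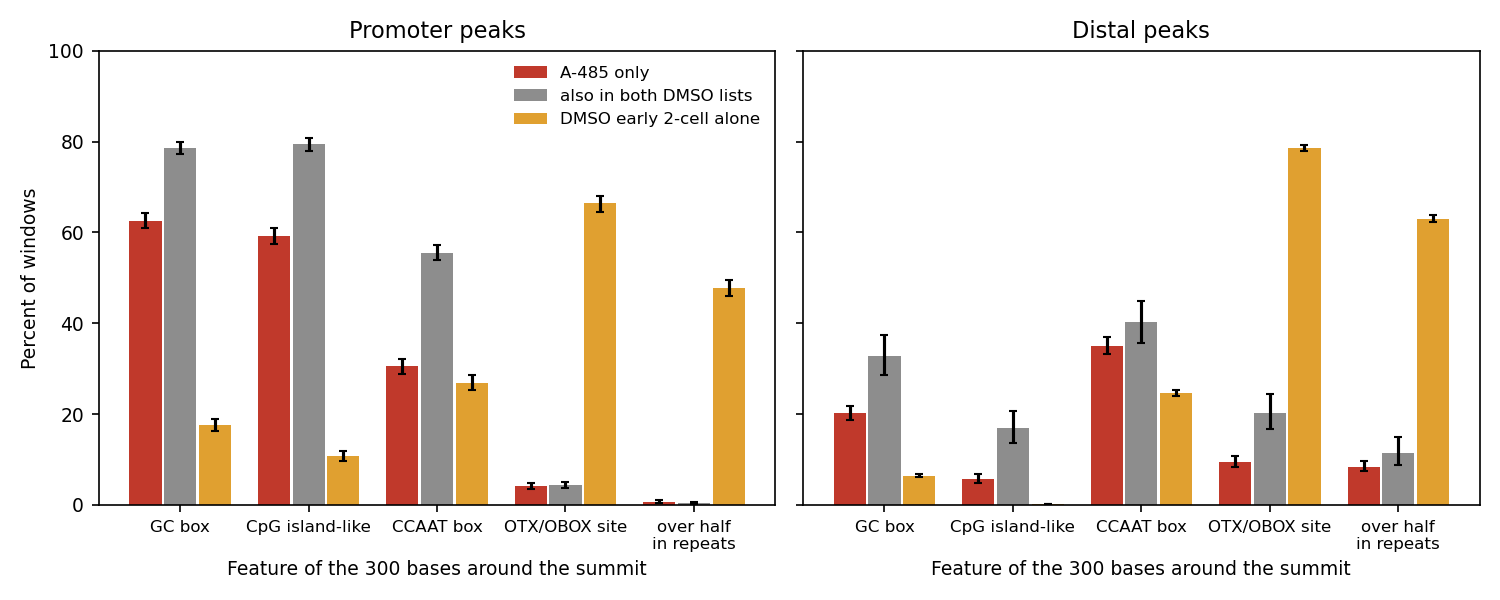
Bars give the percent of 300-base summit windows that hold each feature, for promoter (left) and distal (right) peaks of 3 classes, with 95% Wilson intervals. A-485-only peaks stand near the peaks of both DMSO lists for the OTX/OBOX site at promoters (4.13% and 4.33%), while DMSO-alone peaks hold it in 66.4% of promoter and 78.6% of distal windows.

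The promoter A-485-only peaks belonged to 3535 genes, 78.4% of them protein-coding, and 174 genes had at least 2 such peaks. The distal peaks were assigned to the nearest gene within 100 kb, which gave 2100 genes, 51.6% protein-coding, 14.2% lincRNA and 14.6% processed pseudogenes. For 2921 of the 3535 promoter genes, no DMSO peak lay within 1 kb of a start site, and for the rest one lay at another place there.

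At the early 2-cell stage, when the peaks were called, few of these genes changed in RNA, and those that did were mostly lower after A-485. Of 2860 promoter genes tested, 7 were higher (0.245%) and 185 lower (6.47%), where a call needed an edgeR adjusted p under 0.05, a 2-fold change and a mean of 1 FPKM in either group. Over all 20872 genes tested, 0.402% were higher and 7.9% lower. The interval of the higher share, 0.119 to 0.504%, held the background, and that of the lower share, 5.62 to 7.43%, lay just below it. Of 1098 distal genes tested, 4 were higher (0.364%) and 64 lower (5.83%). The median log2 fold change (A-485 over DMSO) was 0.06 for promoter genes and 0.06 for distal genes, against 0.00 over all genes.

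At the late 2-cell stage, promoter genes were called higher after A-485 more often than genes in general under the main rule for peaks. Of 2995 promoter genes tested, 515 rose (17.2%, 15.9 to 18.6) and 386 fell (12.9%, 11.7 to 14.1), against 10.5% and 16.8% of all 22822 genes tested. Genes whose promoter held another A-485 early 2-cell peak, shared with a DMSO list, went the other way, with 9.64% higher and 29.1% lower, and so did genes with a promoter peak of early 2-cell DMSO embryos alone, with 5.44% and 31.2%. Among the 12951 genes tested with no A-485 early 2-cell promoter peak at all, 9.48% were higher and 11.1% lower. Only 7426 of these reached the mean of 1 FPKM that a call needed, against 2426 of the 2995 promoter genes. Among genes that reached it, 21.2% of promoter genes were higher and 15.9% lower. The shares were then 18.4% and 16.5% for distal genes, 16.5% and 19.3% for genes with no such peak, and 15.0% and 23.8% for all genes. Counted over genes tested, the promoter genes with no DMSO peak at the promoter lay farther from all genes in both shares. Of these 2421 genes, 450 rose (18.6%) and 249 fell (10.3%). Distal genes moved less clearly, with 158 of 1188 higher (13.3%) and 142 lower (12.0%). Where the peak was also called at the late 1-cell stage, 14.2% (11.1 to 18.2) of the genes were higher, and 17.6% (16.2 to 19.1) of the rest, so that the intervals overlapped.

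The median log2 fold change at the late 2-cell stage was 0.45 for promoter genes, 0.48 for distal genes and 0.28 over all genes. It was higher still, 0.59, for genes with no A-485 promoter peak, so that the medians set the promoter genes apart only from genes with shared or DMSO-alone peaks. With both early 2-cell lists cut to equal length by −log10 q, 578 promoter genes were higher and 653 lower late and their median was 0.29, close to that of all genes. More genes then fell than rose, unlike the 515 higher and 386 lower of the main rule. Shares of genes tested are not given for that setting, so it cannot be set against all genes. The values also depend on the scaling. Mitochondrially encoded protein genes took 5.35 to 5.43% of counts in late A-485 libraries and 2.35 to 2.44% in DMSO libraries, and scaling to them moved the median of all genes to −0.69 and those of promoter and distal genes to −0.53 and −0.49. Under that scaling 274 promoter genes were higher and 834 lower, so the share of calls that were higher went from 57.2% to 24.7%, and for distal genes from 52.7% to 20.8%. Over all genes, 5.16% were higher and 30.1% lower under it, against 9.15% and 27.8% of promoter genes. Statements below that a gene rose are relative to the usual scaling (TMM).

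**Figure D4:**
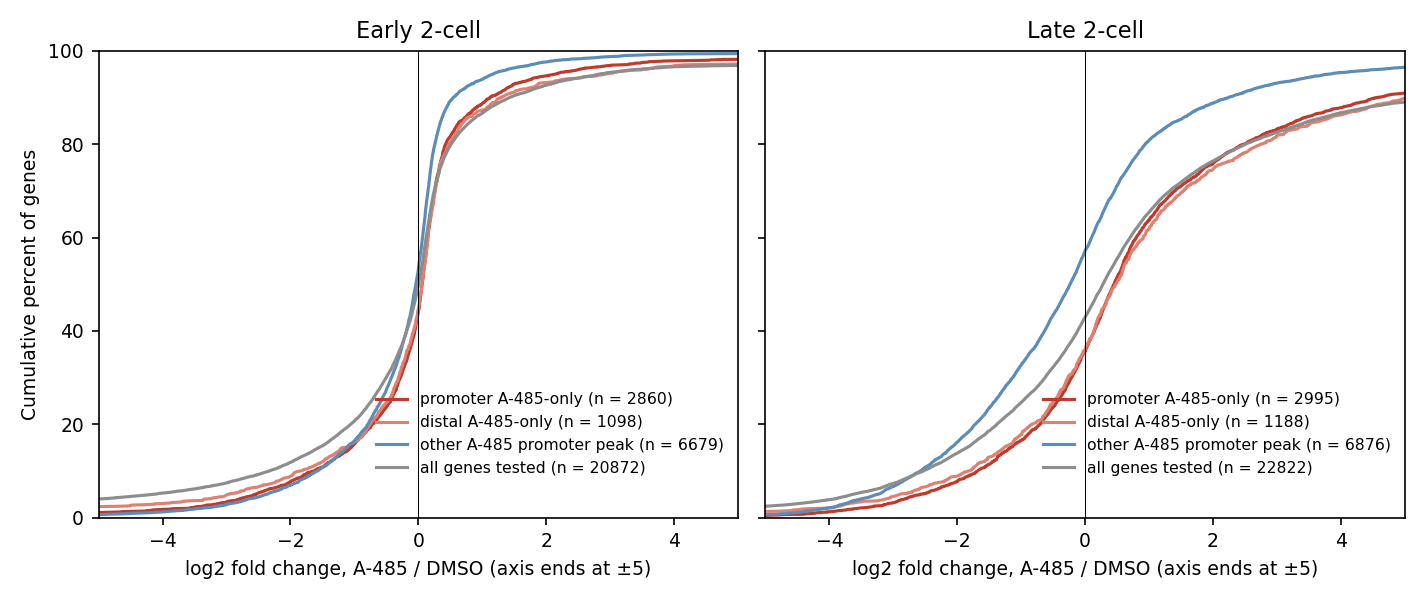
Lines give the cumulative percent of genes (vertical axis) against the log2 fold change of A-485 over DMSO (horizontal axis, ending at ±5) at the early (left) and late (right) 2-cell stage. At the late stage the promoter and distal A-485-only lines lie to the right of the line of genes with another A-485 promoter peak, with medians of 0.45, 0.48 and −0.24.

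Expression levels showed the same contrast. The median FPKM of the 3517 promoter genes in the tables was 0.95 and 0.92 in the early A-485 libraries and 1.12 and 1.17 in the early DMSO libraries. In late 2-cell embryos it was 2.26 and 2.17 after A-485, and 1.07 and 1.21 in DMSO, close to the 1.0 and 0.97 of DMSO zygotes. The 7479 genes with another A-485 promoter peak were expressed at a higher level, with medians of 3.27 to 4.74 FPKM at the early and 5.05 to 6.97 at the late stage.

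Genes at the strongest promoter peaks were mostly unchanged or unresolved early and several were higher late. Xlr3a, of the X-linked lymphocyte-regulated family, whose near-identical copies can share reads, measured 54.1 and 64.4 FPKM in early A-485 and 78.1 in both early DMSO libraries. In late embryos it measured 60.1 and 62.9 against 8.56 and 21.7. Both late DMSO libraries were thus far below all others, and the early A-485 values were below the early DMSO ones. The late log2 fold change was 1.66 ± 0.22 (SE, edgeR adjusted p = 7e-05), and the early one, fitted on counts, was 0.16 ± 0.12. FPKM divides by an effective length estimated for each library, so that FPKM and count-based folds can differ.

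Scel, which encodes sciellin, a protein of the cornified envelope of epithelial cells, showed the same late contrast. It had 10.0 and 9.61 FPKM in early A-485, 9.29 and 10.8 in early DMSO, 12.1 and 10.8 in late A-485, and 2.96 and 2.86 in late DMSO libraries. The groups overlapped early and were apart late, with a late log2 fold change of 1.77 ± 0.27 (edgeR adjusted p = 0.00028). Sema3c was also higher late, at 2.35 and 2.81 against 0.48 and 0.66 FPKM (log2 2.01 ± 0.63, edgeR adjusted p = 0.025), but this call was lost without the second late A-485 or the second late DMSO library (log2 1.79 and 1.75, edgeR adjusted p = 0.11 and 0.088). Gm9165, a processed pseudogene, reached 4.83 and 3.04 FPKM against 0.1 and 0.17. Sertm1 reached 2.55 and 1.35 FPKM against 0.03 and 0.00, and both genes were called higher. The other genes at the 10 strongest promoter peaks, Sumf2, Cpe, Spin4 and Gm17767, had no call at either stage, and Mrpl23-ps1 fell late from 2.52 and 3.15 FPKM to 0.00 in both libraries, a call that was lost in 3 of 4 fits with 1 library left out (edgeR adjusted p = 0.052 to 0.071).

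Nearest genes of the strongest distal peaks ranged from silent to well expressed. Gm37825, Gm44734, Gm6989 and Gm6200 were listed at 0 FPKM in every 2-cell A-485 and DMSO library. E2f7, a repressor of the E2F cell cycle programme, had no call at either stage, with 11.8 and 14.9 FPKM late after A-485 and 25.7 and 17.9 in DMSO. BC002059, a lincRNA, had no call either, with 21.6 and 19.4 FPKM early after A-485 against 15 and 14.4, and 4.62 and 9.66 against 3.66 and 4.19 late. Usp25, a deubiquitinase, fell at the late stage from 4.80 and 6.37 to 2.46 and 2.09 FPKM, by just under 2-fold (log2 −0.98) with scaling to library totals. Hsf5, a heat shock factor known from the male germ line, rose from 2.98 and 1.93 to 7.27 and 7.37 FPKM, and it held a promoter A-485-only peak as well as a strong intronic one.

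Under the mitochondrial scaling the late calls of Xlr3a, Scel, Sema3c and Hsf5 fell short of the threshold, with log2 fold changes of 0.67, 0.79, 1.05 and 0.40.

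The 7 promoter genes called higher at the early stage were all called higher again late. The count was 4 with library totals, 11 without the second DMSO library, 14 under the replicate block, without the filter on low counts or with 16 libraries in the fit, and 16 without the FPKM cutoff. The 7 genes are named here after their values were seen: Akap5, Fst, Nrp2, Lypd1, Ddx25, Pcdh20 and Grin2a. Fst encodes follistatin, which binds and blocks activin, Nrp2 a receptor for semaphorins and VEGF, Grin2a a subunit of the NMDA receptor, and Ddx25 an RNA helicase of the germ line. Ddx25 measured 0.93 and 1.29 FPKM against 0.35 and 0.26 early, and 4.61 and 5.42 against 0.14 and 0.20 late. Grin2a measured 1.73 and 1.64 against 0.08 and 0.33 early, and 6.34 and 6.94 against 0.04 and 0.01 late. Lypd1 rested on a single library at each stage (0.24 and 8.87 FPKM early, 4.13 and 0.19 late after A-485). The early calls of Akap5, Fst and Pcdh20 were lost without the first A-485 or the first DMSO library (log2 0.85 and 1.23, 3.31 and 2.65, and 1.01 and 1.24), and that of Nrp2 without the second of either (1.48 and 1.39). Lypd1 lost its early call without the second A-485 library (0.32) and its late call without the first (1.41).

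Of the 4 distal genes higher early, Gm12851, a processed pseudogene and so uncertain where it shares reads with its parent gene, rose from 0.00 and 0.80 to 12.6 and 19.6 FPKM early, and was at least 56.6-fold higher late, with 50.5 and 27.9 FPKM against 0.00 in both DMSO libraries. Nrp2 and Gm31600 were also higher at both stages. Gm43555, a further processed pseudogene, was higher early (7.07 and 11.2 against 0.83 and 0.52 FPKM) and lower late (1.06 and 4.29 against 17.4 and 14.9), and both calls were lost under the replicate block (log2 3.85 and −3.14), and in 4 of 4 early and 3 of 4 late fits with 1 library left out.

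The genes lower at the early stage included genes of the study's early 2-cell minor wave, Slc34a2 and D13Ertd608e among them. Slc34a2, a sodium-phosphate cotransporter with a peak of 8.26-fold enrichment over its start site, fell from 88.6 and 72.0 to 1.29 and 1.13 FPKM early and from 359.0 and 431.0 to 4.87 and 11.6 late. Its log2 fold changes were −5.80 ± 0.15 (edgeR adjusted p = 2.4e-10) and −5.78 ± 0.19 (edgeR adjusted p = 4e-09). No control peak was called at this promoter although the RNA was abundant in control embryos. D13Ertd608e fell from 73.9 and 77.7 to 2.06 and 0.55 FPKM early, and Gm5435, a processed pseudogene 2905 bp from a distal peak, from 52.2 and 43.4 to 0.28 and 0.13. Prps1, which makes phosphoribosyl pyrophosphate for nucleotide synthesis, fell from 38.6 and 34.7 to 6.21 and 2.08 FPKM early and from 170.0 and 184.0 to 20.1 and 16.8 late.

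Of the 185 promoter genes lower early, 115 were lower and 12 higher late, and of the 64 distal genes, 41 were lower and 4 higher. Beside this, 10.5% of all genes tested and 17.2% of promoter genes were higher late. The same counts over all genes lower early are not given here. The change of direction is thus not shown to be particular to these genes. Of the 16 genes that went from lower to higher, 14 are named here after their values were seen. Those at promoters included 4 of the list of developmental regulators described below, Sox2, Msx1, Irx3 and Irx5. Among the promoter genes were Sox2, a factor of pluripotent and neural cells, the homeobox genes Msx1, Irx3 and Irx5 and the LIM-domain gene Lmo4. Also among them were Krt18, a keratin of simple epithelia, Scd2, a fatty acid desaturase, Morc4, Exph5 and the antisense transcript Gm16136, whose reads cannot be told from those of its partner gene where counting did not use strand. The distal genes were Dlx3, Otx1, Neurog2 and Tmsb4x. Sox2 measured 2.33 and 1.82 FPKM against 8.20 and 7.60 early, and 11 and 12.2 against 1.96 and 2.83 late. Msx1 measured 0.96 and 0.87 against 3.99 and 4.92 early, and 12.2 and 11.7 against 4.03 and 3.77 late. In both genes the A-485 libraries were below the DMSO libraries early and above them late. With 1 library left out, the early call was lost for Dlx3 (log2 −1.41 to −2.16), Tmsb4x (−1.65 and −1.76), Gm16136 (−1.67 and −1.91), Otx1 without the first A-485 library and Morc4 without the second DMSO library (−0.88). Under mitochondrial scaling the late call was lost for Krt18, Lmo4, Irx5, Exph5, Msx1 and Neurog2 among those named, with log2 fold changes still above 0.

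Among promoter genes that rose late to at least 5 FPKM without overlap, the rule by fitted fold change named 6030445D17Rik, Il15ra, B230119M05Rik, Ang and Gm26620, all at 0.00 FPKM in both late DMSO libraries. Fitted folds against 0 depend on the prior count, so these need not be the genes that rose most. Il15ra, a receptor subunit for interleukin 15, was at least 35.3-fold higher, with 7.88 and 2.52 FPKM. Ang, which encodes the ribonuclease angiogenin, was at least 27-fold higher, with 5.90 and 6.98 FPKM. Among distal genes, Npr3, a clearance receptor for natriuretic peptides, had 4.59 and 5.80 FPKM against 0.00 and 0.02.

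Large late falls were seen in Slc34a2 and Gm5435, given above, and in several further genes. Impdh1, which catalyses a step of guanine nucleotide synthesis, fell from 36.5 and 39.5 to 0.33 and 0.87 FPKM (log2 −6.49 ± 0.43, edgeR adjusted p = 2.3e-07). Tead4, a factor needed for the trophectoderm, fell from 7.43 and 11.3 to 0.05 and 0.39 FPKM. Zmat5 fell from 16.7 and 25.1 to 0.00 and 1.04. Near distal peaks, Stmn3, a microtubule-destabilizing stathmin, went from 27.9 and 32.3 to 0.08 and 0.07, Ccdc126 from 31.7 and 24.4 to 0.43 and 0.94, Gm38100 from 27.8 and 33.4 to 1.16 and 0.81, and Sp6, a Krüppel-like factor, from 46.3 and 49.6 to 2.01 and 1.17 FPKM. These control levels were far above the treated ones in every library.

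**Figure D5:**
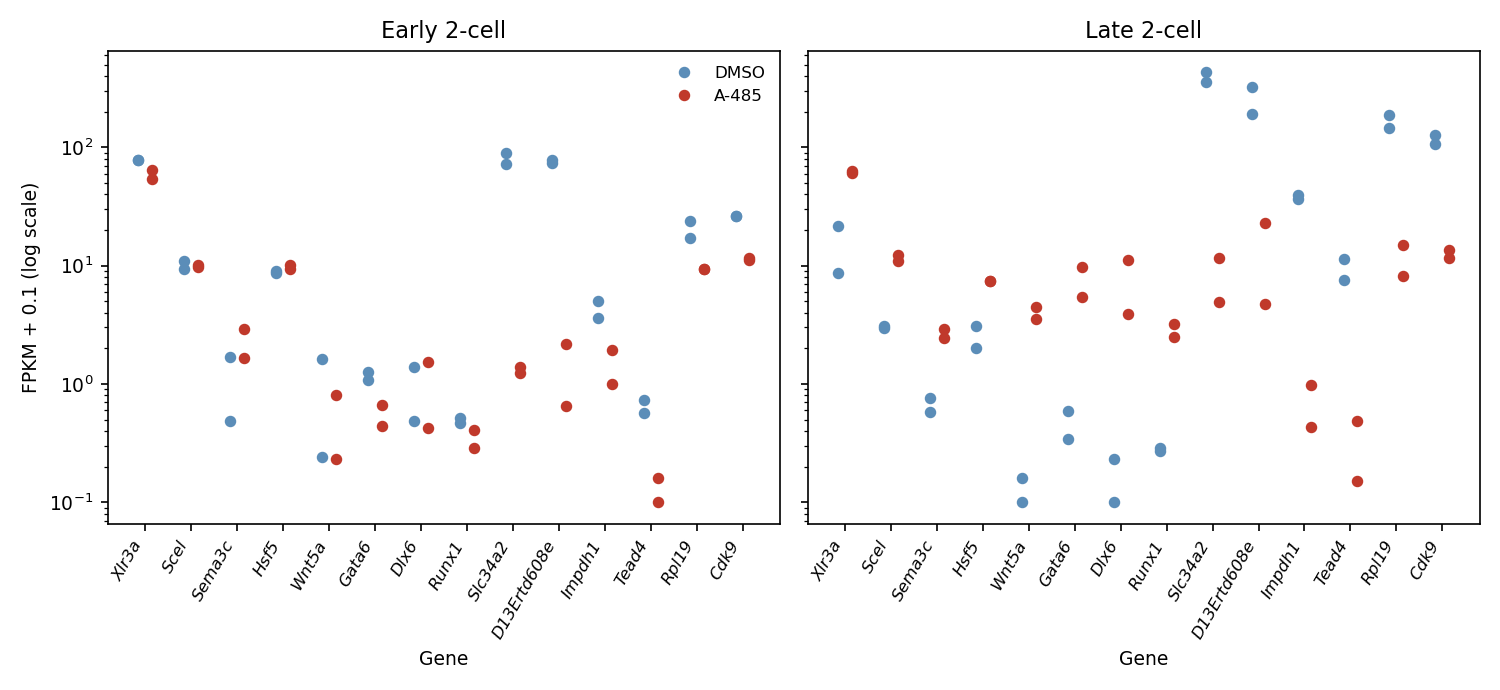
Points give the FPKM of each library (vertical axis, FPKM + 0.1 on a log scale) for 14 genes with an A-485-only peak at or near them, in DMSO (blue) and A-485 (red) embryos at the early (left) and late (right) 2-cell stage, 2 libraries a group. Xlr3a, Scel, Wnt5a, Gata6, Dlx6 and Runx1 have both red points above both blue points at the late stage, and Slc34a2, Rpl19 and Cdk9 have them below at both stages.

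By function, listed developmental regulators held a promoter A-485-only peak more often than protein-coding genes did. Many of the list rose late, with or without such a peak. Of 254 listed genes, 51 held a promoter A-485-only peak (20.1%, 15.6 to 25.4), against 12.6% of all protein-coding genes, and only 26 held another A-485 promoter peak (10.2%, against 28.3%). The list was matched by name and also takes in Sox6os, Irx3os, Six3os1, Foxl2os and Sox2ot, which may share a peak with their partner gene. The comparison with protein-coding genes is therefore not of like with like. Irx3os, Six3os1, Foxl2os and Sox2ot were among those higher late. Of the 49 tested late, 29 rose and 3 fell, with a median log2 fold change of 2.54, and the 3 that fell were Gata4, Foxo4 and Sox13. In the rest of the list, without such a peak, 49 of 163 rose and 7 fell, with a median of 2.91. The difference between these counts was not tested. Wnt5a, a secreted ligand, had 3.41 and 4.36 FPKM late against 0.06 and 0.00 (log2 6.74 ± 0.72, edgeR adjusted p = 1.3e-05). Gata6, a factor of the primitive endoderm, had 5.32 and 9.55 against 0.49 and 0.24. The homeobox gene Dlx6 had 11.1 and 3.83 against 0.13 and 0.00, and Hoxc6 had 2.25 and 1.85 against 0.00 and 0.04. At the early stage 5 of the 47 tested fell, namely Irx3, Irx5, Msx1, Sox2 and Foxo4, and none rose.

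Among the study's Polycomb target genes, 85 of 1917 held a promoter A-485-only peak (4.43%), against 6.38% of all annotated genes. Of the 85, 84 had no DMSO peak at the promoter, and late 15 of 44 tested rose and 1 fell. The rest of that list had 36 higher and 0 lower of 300. The study chose this list partly for genes with no expression in preimplantation embryos. A call needed a mean of 1 FPKM, so rises could be called far more readily than falls. The direction is therefore not independent evidence. In the study's list of genes with H3K27me3-dependent imprinting, 7 of 27 held a promoter A-485-only peak (25.9%, 13.2 to 44.7): Mbnl2, Runx1, Epas1, Etv6, Lpar3, Hunk and Platr4. None of the 27 held another A-485 promoter peak. Runx1, a factor of blood development, rose late from 0.19 and 0.17 to 3.10 and 2.40 FPKM (log2 3.38 ± 0.51, edgeR adjusted p = 0.00023), and Mbnl2, a splicing regulator, from 0.44 and 0.31 to 1.81 and 2.46. Platr4 was also higher, a call lost without the second A-485 library (log2 2.73), and Etv6 lower. Epas1, the hypoxia-inducible factor 2 alpha, was called lower on counts (log2 −1.40), but its FPKM overlapped between groups (0.41 and 3.18 against 1.86 and 1.64), and the call was lost in 3 of 4 fits with 1 library left out.

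Ribosomal protein genes, whose reads can be shared with processed pseudogenes, went down with the rest of their list. Of 88 cytoplasmic ribosomal protein genes, 14 held a promoter A-485-only peak and 52 another A-485 promoter peak. All 14 fell late, with a median log2 fold change of −2.84, and 10 of 14 fell early, against 66 and 37 of the other 73 and 72 genes tested. Rpl19 fell from 145.0 and 187.0 to 14.7 and 8.07 late. Cdk9, the kinase that releases paused RNA polymerase II, fell from 26.2 and 26.1 to 11.4 and 11 early and from 106.0 and 126.0 to 11.5 and 13.4 late. Of 8 ribosome biogenesis factors with a promoter A-485-only peak, 6 fell late and 2 rose, against 43 and 0 of the other 48. Of 3 replication licensing genes all 3 fell, against 11 of the other 18, and of 4 proteasome subunits 3 fell, against 21 of the other 45. Nol3, listed among ribosome biogenesis factors, rose, unless the second A-485 library was left out (log2 3.31 without the call), and its product is known as an inhibitor of apoptosis. Of 13 nuclear genes of the respiratory chain, 1 rose and 2 fell, against 4 and 26 of the other 91. Ndufb4, a subunit of complex I, rose from 0.16 and 0.32 to 6.42 and 6.30 FPKM, and Ndufs1, also of complex I, and Uqcr10, of complex III, fell (log2 −1.71 and −1.97), Uqcr10 with no call without the first DMSO library (−1.93).

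The histone genes Hist1h1e and Hist1h3e rose late, to 11.1 and 7.60 FPKM from 1.91 and 2.58, and to 42.7 and 32.5 from 9.85 and 10.6, although near-identical copies may share their reads and both calls were lost under mitochondrial scaling. Of the 86 zinc finger genes with a promoter A-485-only peak that were tested, 16 rose and 8 fell late, against 60 and 94 of the other 387, and these shares were near those of all promoter genes.

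The multicopy gene families of the 2-cell programme that were examined had no A-485-only peak, but most are too small to set them apart from other genes. None of the 9 Zscan4, 6 Usp17-like, 55 Obox and 5 Tdpoz family genes had a promoter or distal A-485-only peak, although reads of such near-identical copies are hard to place. The promoter intervals reached 29.9%, 39.0%, 6.53% and 43.4%, and so held the 6.38% of all annotated genes. Another A-485 promoter peak lay at 1 Obox gene and at no gene of the other families. Of 15 single-copy 2-cell genes, 2 held a promoter A-485-only peak (13.3%, 3.74 to 37.9). Of the 558 genes of the study's early 2-cell minor wave, 31 held a promoter A-485-only peak (5.56%, near the share of all annotated genes) and 148 another A-485 promoter peak. Of these 31, 20 fell early, against 416 of the other 526. The study chose this list on its own embryos, so that its direction is not independent evidence. Of 18 histone deacetylase genes none (interval up to 17.6%), and of 1972 olfactory and vomeronasal receptor genes 4 (0.203%), held a promoter A-485-only peak.

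Imprinting control regions, where one parental copy is methylated, were touched in 5 cases. Of 21 regions listed by the study, those of Plagl1, Peg13, Peg3, Inpp5f and Dlk1-Gtl2 overlapped an A-485-only peak, and those of Peg3 and Dlk1-Gtl2 also overlapped a late 1-cell A-485 peak. In early 2-cell DMSO embryos 3 regions overlapped a peak, those of Zrsr1, Impact and Mcts2, and 13 regions overlapped no peak of any list. The lists do not separate the parental copies.

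Markers of other cells moved in both directions at the late stage. The summed level of 8 fibroblast markers was 20.2 to 21.9 FPKM after A-485 and 0.50 to 1.13 in DMSO, with Dcn, Lum and Col1a2 at 0 in both A-485 libraries. The summed level of 12 cumulus markers was 4.6 to 4.8 after A-485 and 8.85 to 12.7 in DMSO, that of 6 erythroid markers 0.43 to 0.55 and 3.53 to 4.56, and that of 6 sperm markers 2.14 to 3.09 and 1.25 to 2.37. At the early stage the fibroblast sums overlapped, at 1.76 to 2.12 and 0.68 to 2.54. Foxl2, listed as a cumulus marker and a developmental regulator, held an A-485-only peak and reached 1.47 and 1.63 FPKM late against 0.00 and 0.09. The part of other cells in the results was not tested.

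After TSA, in late 2-cell embryos with their own controls, 600 of 2982 promoter genes were higher (20.1%) and 377 lower (12.6%), against 13.8% and 13.9% of all 23429 genes tested. Of 1203 distal genes, 200 were higher (16.6%) and 127 lower (10.6%). The median log2 fold changes were 0.21 for promoter genes and 0.28 for distal genes, against 0.13 over all genes. Genes with no A-485 early 2-cell promoter peak had a higher median, 0.37, with 13.1% higher and 8.74% lower. Fewer of them could be called, since 7623 of 13596 reached the mean of 1 FPKM, against 2334 of 2982 promoter genes. Among genes that reached it, 25.7% of promoter genes, 23.5% of distal genes and 23.4% of those without such a peak were higher. The lower shares were 16.2%, 14.9% and 15.6%, so these sets were close. Genes with another A-485 promoter peak had 12.5% higher and 24.6% lower. Among the 49 developmental regulators with a promoter A-485-only peak that were tested after TSA, 28 were higher and 2 lower, beside 77 and 3 of 167 in the rest of the list.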

How the data were processed

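Peak lists were deposited by the authors, who used the ENCODE ATAC-seq pipeline and kept peaks reproducible between 2 replicates. The deposited columns used here were position, fold enrichment (a ratio over background), −log10 q value, the score of the caller and the summit. Lines with the same position were joined. The deposited gene tables hold RSEM expected counts, FPKM and effective lengths that the authors estimated. The submitters' processing notes name STAR 2.7.8a, RSEM 1.3.1, Trimmomatic 0.39, Bowtie2 2.4.2, Picard, deepTools 3.5.1 and DESeq2 1.32.0. Coordinates are on GRCm38, and all 58713 peaks lay within its chromosomes. Moving the peaks by 1 Mb lowered the promoter share from 52.7% to 9.11%.

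Overlaps of at least 1 base were found with bedtools 2.31.1 and Python 3.11.15. Distance ran from the peak edge to the nearest of 132629 start sites of GENCODE vM21. Intervals are 95% Wilson intervals and cover counting error only. Expected counts were rounded, and genes whose 4 libraries together held 10 or more of them were tested with edgeR 4.0.16 (R 4.3.3), TMM scaling, the quasi-likelihood test and Benjamini-Hochberg adjustment over all genes tested, with no covariate. The test was checked on simulated data. The difference between stages was an interaction term over 8 libraries. Genes with at most 3 counts in each library of a group get no fitted fold, and "at least" folds put 3 counts per library in place of 0. The labels do not say that libraries came from separate cultures, so p-values measure only the spread between these libraries, which may be technical.

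The text names genes at the 10 strongest promoter and distal peaks, the 5 called genes with the largest change per direction, stage and place (at least 5 FPKM and no overlap), and up to 4 called genes of each of 31 lists, which include markers of cumulus, fibroblast, erythroid and sperm cells. Further genes were chosen after their values were seen, as stated. The peaks and lists were chosen with earlier results of these data known. Alternatives were DESeq2 1.42.0, other scalings, filters, overlaps and start sites, and leaving out libraries. Some genes and sequences are not reported here. The CUT&RUN samples and the test of zygote RNA were not analysed here.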

Additional observations from a re-analysis of the deposited data

Results flagged for a closer look

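For the genes below, the effect of A-485 differed between the late and the early 2-cell stage by a test of that difference itself, the interaction term of edgeR's quasi-likelihood test over 8 libraries with Benjamini-Hochberg adjustment. Values are log2 fold changes of A-485 over DMSO at the late stage minus those at the early stage, given where the fold could be fitted at both stages. Of the 111 genes named by rule, 65 passed the threshold, and of those with the 24 further genes, 84 did, against 20% of all 25141 genes tested. Of the 111, 98 had a call at one or both stages, and most were named for it, so that a high share was built into the choice. These differences were not refitted under the mitochondrial scaling, which moved the median of all genes at the late stage from 0.28 to −0.69. The late embryos were taken after A-485 had been washed off, so the differences cannot separate stage from washout.

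The effect was higher at the late stage by 1.58 for Xlr3a, 3.40 for Gm9165, 1.86 for Scel, 3.56 for Spin4, 1.29 for Hsf5, 2.25 for Gm5435, 5.34 for Dbx1 and 4.75 for Gata6. Also above 0 were the differences of 0.95 for Btg1, 2.86 for Eif4ebp1, 4.34 for Nol3, 5.31 for Ndufb4, 3.61 for Zfp661, 6.11 for Wnt5a, 3.18 for Sp8 and 3.08 for Klf10. Further values above 0 were 1.71 for Hist1h1e, 1.70 for Hist1h3e, 4.82 for Fos, 4.63 for Foxl2, 3.90 for Runx1 and 2.97 for Mbnl2.

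The effect was lower at the late stage, by log2 differences of −3.58 for Impdh1, −2.26 for Ccdc126, −3.64 for Gm38100, −3.08 for Rpl19, −1.29 for Rpl6, −2.90 for Rpl29, −1.92 for Mrpl4 and −1.43 for Eif2ak3. Also below 0 were the differences of −1.55 for Eif2s3x, −3.46 for Pwp2, −1.41 for Nop9, −2.54 for Rrp36, −2.01 for Psma3, −1.73 for Psmd11, −1.44 for Psma6 and −1.46 for Prpf4b. Further values below 0 were −1.27 for Snrpf, −1.94 for Cdk9, −1.35 for Cdc23, −2.46 for Gins3, −1.23 for Mcm5, −1.37 for Mcm2 and −1.96 for Ddx1.

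The direction of the following values was mostly fixed by the choice of genes, which were taken after their values were seen as higher early or as lower early and higher late, so they are descriptions only. The difference was 2.94 for Ddx25, 5.24 for Krt18, 3.70 for Scd2, 3.29 for Lmo4, 5.67 for Morc4, 4.28 for Irx3, 3.34 for Irx5 and 2.96 for Exph5. It was 3.74 for Msx1, 4.07 for Sox2, 6.80 for Gm16136, 4.65 for Dlx3, 3.99 for Otx1, 3.86 for Neurog2 and 5.18 for Tmsb4x. The lowest adjusted p among these and the genes above was 8.9e-09 (edgeR), for Klf10, and the highest 0.037, for Spin4 and Fos.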

How the results depend on the processing

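Of 381 values of counts, shares and medians under the alternatives, 284 stayed within the spread or within 1.5 times, 95 moved and 2 reversed. Of 2004 values of named genes, 1903 kept their direction and call and 101 lost the call, with 0 reversed in sign. The cause of the changes below was not tested, except that a shorter list holds fewer peaks and genes.

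A stricter −log10 q threshold, at the median of the A-485 list, left 1554 A-485-only peaks, 65.9% at promoters and 28.7% distal, with a median fold enrichment of 8.56 and 16.6% in late 1-cell A-485. Promoter genes then numbered 2 higher and 68 lower early, and 199 and 137 late, and distal genes 0 and 11 early, and 32 and 28 late, with a late distal median of 0.57. After TSA the counts were 234 and 124 at promoters and 48 and 24 at distal sites. Taking the same number of strongest peaks from both early 2-cell lists gave 55.9% promoter, 38.0% distal and 11.8% in late 1-cell A-485, medians of 0.04 (promoter, early), 0.29 (promoter, late) and 0.43 (distal, late), and 653 promoter genes lower late and 590 lower after TSA. Start sites of protein-coding genes alone gave 47.0% promoter and 48.4% distal peaks, 2 higher and 127 lower distal genes early, 264 lower distal genes late, 335 higher and 221 lower distal genes after TSA, and medians of 0.05 (promoter, early), 0.02 (distal, early), 0.32 (promoter, late) and 0.28 (distal, late). A promoter of 500 bp gave 48.5% promoter peaks and a late promoter median of 0.42. Removing a peak only when most of it was covered by DMSO peaks gave 11.7% in late 1-cell A-485 and a late promoter median of 0.43. Removing peaks within 1 kb of a DMSO peak gave a median fold enrichment of 6.93 and RNA medians of 0.07 (promoter, early), 0.50 (promoter, late) and 0.52 (distal, late). Genes with no DMSO peak at the promoter had medians of 0.08 early and 0.59 late, with 249 lower late and 247 lower after TSA.

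Scaling to mitochondrial genes reversed the late medians to −0.53 (promoter) and −0.49 (distal), with 274 promoter genes higher and 834 lower and 83 distal genes higher and 317 lower late. It gave 11 promoter genes higher early and a promoter median of 0.05. Library totals gave 4 promoter genes higher early and medians of 0.04, 0.04, 0.64 and 0.67 (promoter early, distal early, promoter late, distal late). In the same order the medians were 0.08, 0.08, 0.51 and 0.54 with DESeq2's size factors in edgeR, 0.08, 0.08, 0.52 and 0.55 with DESeq2, 0.07, 0.08, 0.51 and 0.66 without the filter on low counts, and 0.11, 0.08, 0.50 and 0.57 with all 16 libraries in one fit. Promoter genes higher early were 14 with no filter, 14 with 16 libraries and 16 with no FPKM cutoff, and distal genes 7 with no filter and 10 with no FPKM cutoff.

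A fit with the replicate number as a block gave 14 promoter genes higher early in place of 7 and changed no other count or median beyond the limits. The numbers did not pair the libraries, since same-numbered libraries deviated from their group means with a correlation of −0.0283 early, −0.0254 late and 0.0385 in the TSA experiment.

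With 1 library left out at a time, promoter genes higher early ranged from 7 to 11, promoter genes lower early ranged from 168 to 178, distal genes higher early ranged from 3 to 5, distal genes lower early ranged from 56 to 68. Late, promoter genes higher ranged from 451 to 489, promoter genes lower ranged from 345 to 397, distal genes higher ranged from 133 to 156, distal genes lower ranged from 128 to 144. The medians ranged from 0.04 to 0.06 (promoter, early), 0.02 to 0.08 (distal, early), 0.38 to 0.50 (promoter, late), 0.33 to 0.57 (distal, late). A lone library in a group was taken to vary like the others.

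Depth and the thresholds limit calls: changes under 2-fold, and genes with a mean under 1 FPKM in both groups, got no call. The power to detect changes with 2 libraries a group was not tested, and a peak missing from a list was not called over 2 replicates. The interaction test was run with the main settings only.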
